A study of Mus musculus with 47 samples.

Results

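The basal and the luminal epithelium of the mature resting mouse mammary gland were compared in 12 RNA-seq libraries, 6 of basal and 6 of luminal cells, out of 46 libraries in the whole table. They are the basal and luminal libraries of 2 time points, paired by sort. At involution week 4 (Iw4) the mice had lactated, been weaned and returned to rest, and at month 4 (M4) they had not been pregnant, while both are labelled non-pregnant in stage. The replicates are 3, 5 and 6 of Iw4 and 1, 2 and 6 of M4, which gives 6 pairs, and each of the 3 RNA amplification batches held 1 sort of each time point with both layers, all in 1 sequencing lane. All mice were of the FVB/N strain, cells of several mice were pooled for each sort, and no single mouse can be followed. The study covered 8 time points of the reproductive cycle and asked how the gene expression of the less abundant basal cells differs from that of luminal cells. For comparison, 2 further time points were used, virgin females at week 10 (W10) and lactation day 3 (L3), with 3 sorts each.

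Cells negative for lineage markers of blood, endothelium and stroma were separated by flow cytometry into CD24+ CD29lo (luminal) and CD24+ CD29hi (basal) cells. These are enriched fractions and not single cell types, and in such bulk libraries fewer cells of a type and less RNA per cell cannot be told apart. The libraries held 4398806 to 8171848 reads on genes (median 5656423), with a median of 6024604 in luminal and 5372078 in basal libraries. A level of 3 reads, taken as the smallest measurable, corresponded to 0.276 to 0.535 CPM (reads scaled to a common library size), and this floor covers counting error only. CPM is not divided by gene length, so the levels below are compared between libraries and not between genes.

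The mammary epithelium has an inner luminal layer, which makes and secretes milk and holds the cells that sense estrogen, progesterone and prolactin, and an outer basal layer. Basal cells are mostly myoepithelial: they contract in response to oxytocin to eject milk, and they build and hold the basement membrane on which the duct rests. The layers also signal to each other through pairs of ligands and receptors, and basal fractions hold the cells that can regenerate a gland after transplantation.

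Of 17078 genes, 2123 were called higher in basal cells (12.4% of the genes tested) and 1217 higher in luminal cells (7.13%), where a call needed a 2-fold difference and, in limma with the sort as a block, a p under 0.01 after Benjamini-Hochberg adjustment. Fold changes are differences of log2(CPM + 1), basal minus luminal, on which genes with few reads differ by less than they do as ratios. The median difference over all genes was 0.03. Of the genes called, 2072 of the basal and 1187 of the luminal ones differed in the same direction in 6 of 6 pairs. The calls were made on the same pairs, so this is not a separate test. Over all genes, 3974 were higher in basal and 3120 higher in luminal cells in 6 of 6 pairs. In 14.7% of all genes every basal library was above every luminal library, and in 9.01% every luminal library was above every basal one. The differences were larger on the basal side. A log2 difference of at least 4 (16-fold) was found for 215 genes called higher in basal cells and for 0 called higher in luminal cells, where the largest was -3.62. Luminal markers stood in basal libraries at a larger share of their level than basal markers in luminal libraries, as given below. The part of this in the size of the differences was not tested.

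**Figure D1:**
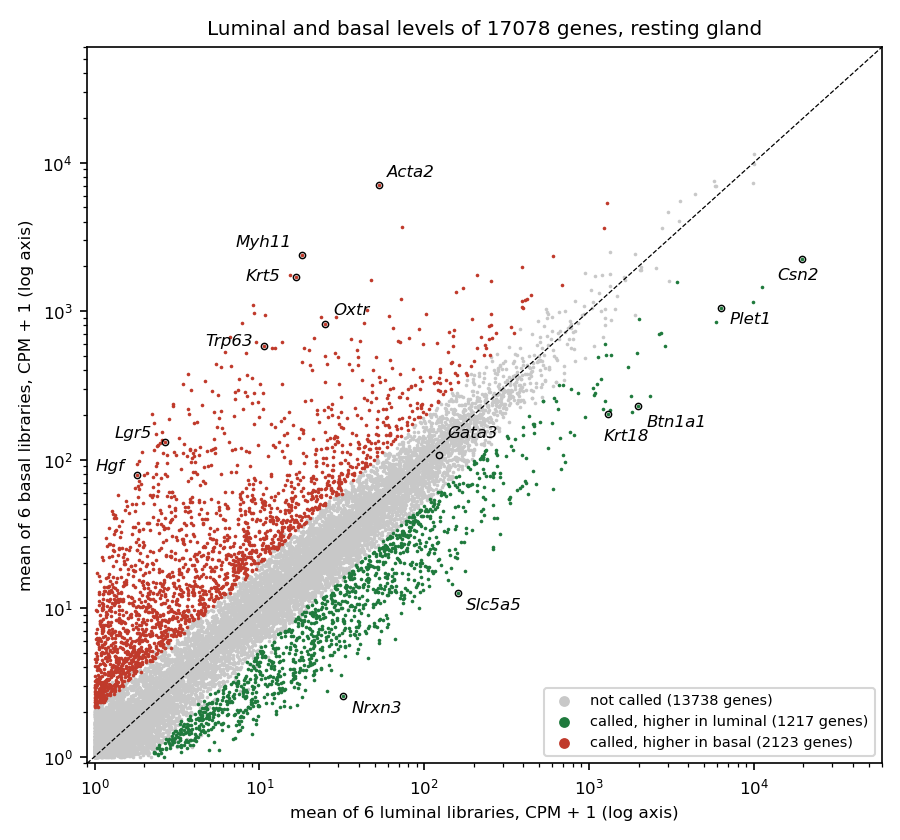
Mean level of each of 17078 genes in 6 luminal (x axis) and 6 basal libraries (y axis) of the resting gland, as CPM + 1 on log axes, with called genes in red (higher in basal, 2123) and green (higher in luminal, 1217) and the line of equal levels dashed. Genes called higher in basal cells lie farther from the line than those called higher in luminal cells.

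The sorts resembled each other. Across genes, which are not independent replicates, the differences of any 2 pairs correlated with Pearson's r of 0.798 to 0.866, luminal libraries correlated with each other at 0.962 to 0.978, basal libraries at 0.965 to 0.978, and a luminal with a basal library at 0.844 to 0.906.

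The 10 genes with the largest difference toward basal cells included 6 of smooth muscle contraction or of the basal cytoskeleton (*Myh11*, *Acta2*, *Cnn1*, *Mylk*, *Myl9* and *Krt5*), which are described with their groups. The other 4 were *Scn7a*, a sodium channel relative (log2 difference 6.67 ± 0.22, SE), *Fmod*, a collagen-binding proteoglycan (6.66 ± 0.26), *Cxcl14*, a chemokine (6.61 ± 0.16), and *Wif1*, a secreted Wnt inhibitor (6.56 ± 0.19). *Wif1* was at 1.15 to 3.75 CPM (median 2.31) in luminal libraries and at 210.3 to 462 CPM (median 305) in basal libraries. The basal libraries were all far above the luminal ones. At the other end stood *Slc5a5*, the iodide transporter (-3.62 ± 0.28), *Lao1*, an amino acid oxidase of milk (-3.57 ± 0.24), *Muc4*, a membrane mucin (-3.53 ± 0.23), *Saa1*, an acute-phase protein (-3.47 ± 0.17), *Nrxn3*, a cell adhesion protein best known from synapses (-3.46 ± 0.29), *Slc28a3*, a nucleoside transporter (-3.46 ± 0.20), *Spp1*, which encodes osteopontin (-3.32 ± 0.19), and the milk genes *Lalba*, *Btn1a1* and *Csn2*. A difference of the same sign in 6 pairs was a condition for being among these genes.

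The markers of both layers followed the labels. Of 15 basal markers, 14 were called higher in basal cells and 0 higher in luminal cells, and of 15 luminal markers, 14 were called higher in luminal cells and 0 higher in basal cells. The exceptions were *Itgb1*, which encodes the CD29 used for sorting (0.83 ± 0.11), and *Gata3*, a luminal transcription factor (-0.19 ± 0.12, adjusted p = 0.248). *Cd24a*, the other antigen of the sort, was lower in basal cells (-1.80 ± 0.12). Since these antigens defined the fractions, their values are a check and not a result. *Gata3* was at 96.5 to 167 CPM (median 116) in luminal and 81.6 to 124 CPM (median 113) in basal libraries, and the groups overlapped.

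Genes of the contractile apparatus were called higher in basal cells without exception in the list, 23 of 23, with a median log2 difference of 4.53 against 0.03 over all genes. *Acta2*, smooth muscle actin, was at 37.1 to 72.4 CPM (median 45.2) in luminal and 5251 to 9911 CPM (median 6212) in basal libraries, a log2 difference of 7.06 ± 0.20 (adjusted p = 8.48e-10). *Myh11*, the smooth muscle myosin heavy chain, was at 9.53 to 28.5 CPM (median 14.8) in luminal and 1767 to 3161 CPM (median 2263) in basal libraries (7.08 ± 0.18, adjusted p = 7.67e-10). No basal library of either gene came near a luminal one. The same order was found for calponin (*Cnn1*, 6.88 ± 0.18), myosin light chain kinase (*Mylk*, 6.85 ± 0.18), the regulatory light chain *Myl9* (6.76 ± 0.24), tropomyosin 2 (*Tpm2*, 6.49 ± 0.18), transgelin (*Tagln*, 5.50 ± 0.13) and caldesmon (*Cald1*, 4.06 ± 0.14). Reads of *Actg2* (6.19 ± 0.35), the enteric smooth muscle actin, may be shared with *Acta2*, its close relative.

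Parts of the cytoskeleton that luminal cells also use differed less. Filamin A (*Flna*) was at 162 to 274 CPM (median 205) in luminal and 1330.0 to 2207 CPM (median 1649.6) in basal libraries (3.06 ± 0.16), and alpha-actinin 1 (*Actn1*) at 54.3 to 70.5 CPM (median 60.1) and 234 to 392 CPM (median 288) (2.25 ± 0.11). Vinculin (*Vcl*), which anchors actin at adhesions, differed by 1.34 ± 0.11, although 39.7% of its exon bases are shared with another gene. Luminal libraries thus held these transcripts at a clear level, and the groups of libraries still did not overlap. The transcription factors of the smooth muscle program differed in the same direction. *Srf*, serum response factor, was at 52.3 to 81.4 CPM (median 57.2) in luminal and 108 to 173 CPM (median 147) in basal libraries (1.24 ± 0.11), and *Myocd*, its coactivator myocardin, was at no more than 0.171 CPM in luminal libraries, under the floor, and at 3.35 to 10.2 CPM (median 5.88) in basal libraries.

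Serum response factor binds the CArG box, a motif of 2 C, 6 A or T and 2 G that reads as the same motif on both strands. It was searched for in the promoter windows of RefSeq (build GRCm38.p6), which run from 250 bases before to 50 bases after a gene's start. A window was found for 18 of the 23 contractile genes, and 3 of them held the box (16.7%), against 1.81% of 27025 genes with a window, 1 of 14 basement membrane genes and 0 of 14 genes of apical junctions. All 23 contractile genes were called higher in basal cells, so the calls do not set these 3 apart. The windows are shown because these 3 genes are the contractile ones with the motif. They are chr2:156775214-156775513 on the + strand for *Myl9*, chr14:20929148-20929447 on the + strand for *Vcl* and chr17:46556113-46556412 on the - strand for *Srf*, and the box, in capitals, begins 161 bases before the start of *Myl9*, 227 before that of *Vcl*, and 82 and 62 before that of *Srf*.
Myl9: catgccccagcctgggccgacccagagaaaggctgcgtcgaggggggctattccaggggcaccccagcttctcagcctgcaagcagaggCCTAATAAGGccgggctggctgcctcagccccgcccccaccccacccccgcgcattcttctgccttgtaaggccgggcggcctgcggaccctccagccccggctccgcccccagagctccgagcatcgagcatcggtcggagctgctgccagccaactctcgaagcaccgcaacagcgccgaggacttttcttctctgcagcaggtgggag
Vcl: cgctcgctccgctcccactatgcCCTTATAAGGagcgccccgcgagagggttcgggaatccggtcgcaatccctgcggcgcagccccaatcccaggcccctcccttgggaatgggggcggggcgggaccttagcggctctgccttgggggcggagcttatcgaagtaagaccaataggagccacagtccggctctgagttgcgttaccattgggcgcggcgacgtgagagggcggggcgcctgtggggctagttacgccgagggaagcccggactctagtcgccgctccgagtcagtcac
Srf: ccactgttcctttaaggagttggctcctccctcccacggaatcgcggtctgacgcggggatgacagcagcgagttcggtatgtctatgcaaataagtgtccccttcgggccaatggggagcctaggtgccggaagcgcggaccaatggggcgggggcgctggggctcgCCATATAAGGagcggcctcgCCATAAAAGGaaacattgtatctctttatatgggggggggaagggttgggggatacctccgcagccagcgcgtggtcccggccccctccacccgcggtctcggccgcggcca
A match is a description of the sequence and not a measured binding site, and a window without these letters says nothing about the factor.

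Receptors through which smooth muscle is made to contract were divided between the layers, with 6 of 16 called higher in basal and 4 higher in luminal cells (median log2 difference 0.48). Of the 16, 12 reached a mean of 1 CPM in at least 1 layer. The oxytocin receptor *Oxtr* was at 9.15 to 40.8 CPM (median 24.4) in luminal and 564 to 1046 CPM (median 881) in basal libraries (5.15 ± 0.21, adjusted p = 8.24e-09), with no overlap. The endothelin receptors *Ednrb* (2.99 ± 0.22) and *Ednra* (1.93 ± 0.20), the purinergic receptor *P2ry1* (2.85 ± 0.28), the vasopressin receptor *Avpr1a* (2.48 ± 0.24) and the muscarinic receptor *Chrm3* (1.47 ± 0.21) were called in the same direction. Higher in luminal cells were the angiotensin receptor *Agtr1a*, at 37.5 to 167 CPM (median 99.6) against 5.39 to 31.6 CPM (median 8.49) in basal libraries (-2.97 ± 0.18), the alpha-1A adrenergic receptor *Adra1a* (-2.36 ± 0.22), the purinergic receptor *P2ry2* (-1.44 ± 0.20) and the prostaglandin receptor *Ptger1* (-1.04 ± 0.15), which shares 63.0% of its exon bases with another gene and lost its call without Iw4 replicate 3 (-0.96) or M4 replicate 2 (-0.97). The other adrenergic receptors in the list, *Adra1b*, *Adra1d*, *Adra2a*, *Adra2b* and *Adra2c*, were not called.

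**Figure D2:**
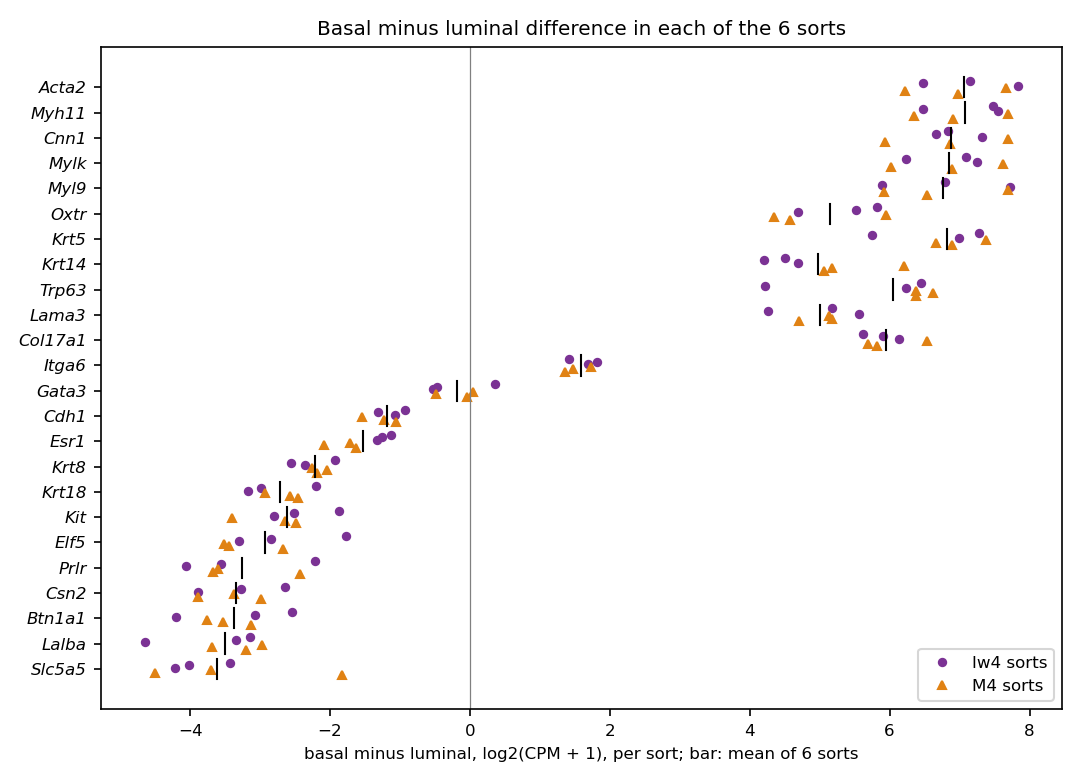
Basal minus luminal difference in log2(CPM + 1) of 24 genes (rows) in each of the 6 sorts, with circles for Iw4, triangles for M4 and a bar at the mean. The contractile genes lie between about 6 and 8 in every sort, the luminal and milk genes below 0, and those of *Gata3* on both sides of 0.

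Genes of the basement membrane were higher in basal cells, with 17 of 20 called and 0 called in the other direction (median log2 difference 2.47). The list median was 2.22 at Iw4 and 2.64 at M4. The difference was larger at Iw4 for 2 of 20 members, and 0 of 20 passed the test between the time points. *Col17a1*, a collagen of hemidesmosomes, was at 5.36 to 10.6 CPM (median 6.45) in luminal and 351 to 705 CPM (median 522) in basal libraries (5.95 ± 0.12, adjusted p = 4.86e-10). The laminin chains did not differ alike. The alpha chains *Lama3* (5.01 ± 0.15) and *Lama1* (4.18 ± 0.12) differed most, the beta and gamma chains *Lamb1* (2.55 ± 0.10), *Lamb3* (2.49 ± 0.15) and *Lamc1* (2.28 ± 0.12) less, and *Lama5* (-0.04 ± 0.14, adjusted p = 0.834) and *Lama4* (0.50 ± 0.21, adjusted p = 0.0733) did not pass the test. *Lama5* was at 124 to 209 CPM (median 185) in luminal and 131 to 232 CPM (median 157) in basal libraries. It is thus a laminin chain that both layers held at overlapping levels. The collagen IV chains *Col4a1* (3.95 ± 0.17) and *Col4a2* (4.91 ± 0.17), which form the common network of basement membranes, differed more than *Col4a5* (1.97 ± 0.13) and *Col4a6* (2.44 ± 0.12). Perlecan (*Hspg2*, 3.19 ± 0.11) and the matricellular protein *Sparc* (5.89 ± 0.24) were also higher in basal cells.

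Of 17 integrin and hemidesmosome genes, 8 were called higher in basal and 1 in luminal cells (median log2 difference 0.98). *Itga9* and *Itga1* differed most. *Itga9* was at 0.412 to 2.22 CPM (median 0.801) in luminal and 58.9 to 123 CPM (median 77.8) in basal libraries (5.31 ± 0.22), *Itga1* differed by 4.09 ± 0.22, *Itga3*, a laminin receptor, by 1.91 ± 0.14 and *Itga6*, which is widely used to sort basal cells, by 1.58 ± 0.10. *Itgb4*, the beta partner of *Itga6*, reached 0.74 ± 0.11 and missed the fold threshold, with basal libraries all above luminal ones. *Itgb6*, which pairs with alpha V, was the member higher in luminal cells (-1.18 ± 0.13).

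Apical junctions and polarity genes showed the opposite direction. Of 18, 15 were called higher in luminal cells and 1, the P-cadherin gene *Cdh3*, higher in basal cells (6.27 ± 0.20), with a median log2 difference of -2.36. The claudins *Cldn7* (-2.96 ± 0.20), *Cldn3* (-2.79 ± 0.21) and *Cldn4* (-2.71 ± 0.16), cingulin (*Cgn*, -2.80 ± 0.20), occludin (*Ocln*, -2.64 ± 0.20) and the polarity gene *Crb3* (-2.06 ± 0.20) belong to tight junctions or the apical domain. E-cadherin (*Cdh1*), which joins epithelial cells of both layers, was at 925 to 1427 CPM (median 1133) in luminal and 440.4 to 606 CPM (median 470.2) in basal libraries (-1.19 ± 0.11). The scaffold gene *Tjp1* (-0.19 ± 0.09, adjusted p = 0.117) did not pass the test. The cadherins thus differed in opposite directions, P-cadherin by the larger amount.

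The keratins fell into 2 sets, 7 of 11 higher in basal and 4 higher in luminal cells. *Krt5* was at 8.37 to 33.1 CPM (median 11.4) in luminal and 1293 to 2067 CPM (median 1747) in basal libraries (6.82 ± 0.18), and its partner *Krt14* at 17.0 to 43.0 CPM (median 25.5) and 518 to 1328 CPM (median 895) (4.97 ± 0.21). *Krt15* (5.62 ± 0.26), *Krt17* (5.53 ± 0.21), *Krt23* (3.46 ± 0.26), *Krt6a* (2.69 ± 0.28) and *Krt16* (1.21 ± 0.17) were in the same set. *Krt18* was at 776 to 2155 CPM (median 1254) in luminal and 85.0 to 335 CPM (median 183) in basal libraries (-2.72 ± 0.13), and *Krt8* (-2.22 ± 0.10), *Krt19* (-2.52 ± 0.16) and *Krt7* (-2.62 ± 0.13) stood with it. Keratins have close relatives, so a share of these reads is uncertain.

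Of 10 transcription factors known from basal cells, 8 were called higher in basal cells (median log2 difference 4.33). *Trp63*, the p63 gene that maintains basal epithelia, was at 4.38 to 27.8 CPM (median 6.33) in luminal and 469.9 to 659 CPM (median 600.0) in basal libraries (6.05 ± 0.26). *Id4* (5.73 ± 0.27), an inhibitor of helix-loop-helix factors, *Snai2* (5.69 ± 0.13), known from epithelial-mesenchymal transition, *Irx4* (5.13 ± 0.20) and *Mef2c* (4.80 ± 0.19), a factor of muscle genes, each exceeded 4 on the log2 scale. All 5 had every basal library above every luminal one.

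The 17 factors known from luminal cells were less uniform, with 9 called higher in luminal and 1 higher in basal cells (median log2 difference -1.31). *Elf5*, a factor of the alveolar lineage, was at 219.8 to 325 CPM (median 282) in luminal and 18.3 to 75.4 CPM (median 36.3) in basal libraries (-2.92 ± 0.20), and *Foxa1*, a cofactor of the estrogen receptor, at 52.2 to 134 CPM (median 109.8) and 3.92 to 26.6 CPM (median 14.9) (-2.83 ± 0.19). *Ehf* (-2.59 ± 0.21), *Cited1* (-2.33 ± 0.20), *Myb* (-2.13 ± 0.27), *Elf3* (-1.58 ± 0.12) and *Spdef* (-1.31 ± 0.21) were also called. Others did not pass the test: *Sox9* (-0.06 ± 0.11, adjusted p = 0.696), *Grhl2* (0.02 ± 0.10, adjusted p = 0.887), *Bcl11a* (0.17 ± 0.23, adjusted p = 0.586) and *Tbx3* (0.44 ± 0.17, adjusted p = 0.0495). *Tfap2c* was higher in basal cells, at 95.5 to 140.3 CPM (median 118) against 18.5 to 32.1 CPM (median 22.4) in luminal libraries (2.27 ± 0.12), without overlap.

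Genes of hormone-sensing luminal cells were higher in luminal cells for 11 of 14 members, and 1 was higher in basal cells (median log2 difference -2.36). The prolactin receptor *Prlr* was at 938 to 2965 CPM (median 1539) in luminal and 55.1 to 352 CPM (median 238) in basal libraries (-3.26 ± 0.22). The estrogen receptor *Esr1* (-1.52 ± 0.13) and the progesterone receptor *Pgr* (-1.52 ± 0.20) differed less, and *Esr1* was still at 14.2 to 36.7 CPM (median 24.9) in basal libraries against 46.6 to 101 CPM (median 68.3) in luminal ones. The paracrine signals downstream of these receptors were also higher in luminal cells: *Tnfsf11*, which encodes RANKL (-3.08 ± 0.31), *Areg* (-2.46 ± 0.27), *Wnt4* (-2.38 ± 0.20) and calcitonin (*Calca*, -2.78 ± 0.23). *Greb1*, known as an estrogen target, was the member higher in basal cells (1.40 ± 0.24), at 0.817 to 7.53 CPM (median 3.23) there and 0.234 to 1.10 CPM (median 0.517) in luminal libraries.

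Of 14 genes of luminal progenitors and alveolar cells, 12 were called higher in luminal cells and 0 higher in basal cells (median log2 difference -2.60). They included the receptor tyrosine kinase *Kit* (-2.62 ± 0.16), *Aldh1a3*, which makes retinoic acid (-2.11 ± 0.22), *Cd14*, a coreceptor for bacterial lipopolysaccharide (-2.74 ± 0.18), the folate receptor *Folr1* (-3.07 ± 0.14) and *Plet1* (-2.79 ± 0.25). The collagen receptor *Itga2*, often used to mark progenitors, was at 36.9 to 58.5 CPM (median 49.7) in luminal and 31.3 to 53.8 CPM (median 42.7) in basal libraries (-0.20 ± 0.14, adjusted p = 0.267), and the groups overlapped.

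Milk genes were expressed in the resting gland and were higher in luminal cells, with 15 of 16 called and 0 in the other direction (median log2 difference -2.65). Beta-casein (*Csn2*) was at 8499 to 34109 CPM (median 17234) in luminal and 820.1 to 4982 CPM (median 1162) in basal libraries (-3.34 ± 0.21, adjusted p = 2.33e-07). Alpha-lactalbumin (*Lalba*) was at 44.5 to 341 CPM (median 151) and 2.13 to 36.3 CPM (median 12.9) (-3.50 ± 0.19), and butyrophilin (*Btn1a1*), a protein of the milk fat globule, at 1068 to 3256 CPM (median 1812) and 57.0 to 408 CPM (median 219) (-3.37 ± 0.18). Whey acidic protein (*Wap*) varied widely within each layer, at 21.7 to 582 CPM (median 52.0) in luminal and 0.981 to 82.2 CPM (median 8.45) in basal libraries (-3.01 ± 0.20). The *Wap* libraries overlapped between layers although the difference had the same sign in 6 of 6 pairs. *Trf*, transferrin, differed by -2.55 ± 0.14, with 76.7% of its exon bases shared with another gene, and the peroxidase *Lpo* was the member not called (0.73 ± 0.26, adjusted p = 0.0403). Caseins are related genes, and reads of *Csn1s2a* and *Csn1s2b* in particular may be shared.

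Genes with a high level in luminal cells were all found in basal libraries at a clear share of that level, whereas the reverse did not hold. Among 1490 genes with at least 100 CPM in luminal cells, the lowest basal level was 7.28% of the luminal one (*Slc5a5*) and the 1st percentile was 12.4%. Among 1575 genes with at least 100 CPM in basal cells, the lowest luminal level was 0.61% of the basal one (*Il17b*) and the 1st percentile was 0.959%. Over the 15 luminal markers, the median basal level was 27.0% of the luminal level of the same sort in Iw4 replicate 3, 16.1% in Iw4 replicate 5, 13.3% in Iw4 replicate 6, 15.0% in M4 replicate 1, 16.5% in M4 replicate 2 and 21.9% in M4 replicate 6. Iw4 replicate 3 thus had the highest share and Iw4 replicate 6 the lowest. Over the 15 basal markers, the median luminal level was between 1.28% and 2.53% of the basal one. The summed level of the luminal markers was 6023 to 12115 CPM in luminal and 1037 to 2658 CPM in basal libraries, with *Prlr* contributing most. The part of this ratio in the size of the luminal differences was not tested. How much of the basal level of a gene called higher in luminal cells is luminal RNA in the basal fraction was not tested either. The study checked the purity of its fractions by sorting some cells of each sample again and found few cells of the other layer, a count of cells that is not part of the files used here.

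Of 15 host defence genes, 9 were called higher in luminal cells and 1 higher in basal cells (median log2 difference -1.57). *Saa1* was at 21.6 to 137 CPM (median 53.0) in luminal and 0.817 to 10.1 CPM (median 5.55) in basal libraries (-3.47 ± 0.17), and its reads may be shared with *Saa2* (-2.84 ± 0.24). The polymeric immunoglobulin receptor *Pigr* (-2.88 ± 0.19), lactoferrin (*Ltf*, -2.35 ± 0.13) and the lipopolysaccharide receptor *Tlr4* (-2.18 ± 0.12) stood on the luminal side. The protease inhibitor *Slpi* was higher in basal cells (1.53 ± 0.19), while *Tlr2* (-0.07 ± 0.22, adjusted p = 0.82) and the chemokine *Cxcl1* (-0.05 ± 0.29, adjusted p = 0.901) did not pass the test.

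Ion and solute transport also divided the layers, 11 of 19 higher in luminal and 2 higher in basal cells (median log2 difference -1.59). *Slc28a3* was at 405 to 802 CPM (median 600.2) in luminal and 21.9 to 159 CPM (median 45.2) in basal libraries (-3.46 ± 0.20). The sodium-phosphate cotransporter *Slc34a2* (-3.08 ± 0.14), the proton pump subunit *Atp6v1b1* (-3.04 ± 0.16), the potassium channel *Kcnn4* (-2.89 ± 0.23), the epithelial sodium channel subunits *Scnn1b* (-2.71 ± 0.13) and *Scnn1a* (-2.02 ± 0.17) and the glucose transporter *Slc5a1* (-2.60 ± 0.22) were luminal. Basal cells had the calcium-activated potassium channel *Kcnma1*, at 15.5 to 30.2 CPM (median 18.5) against 0 to 0.683 CPM (median 0.336) in luminal libraries (3.95 ± 0.23), and the calcium channel *Trpv6* (2.93 ± 0.25). *Kcnmb1*, the beta subunit of that potassium channel and a member of the contractile list, was also higher in basal cells (5.34 ± 0.23).

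**Figure D3:**
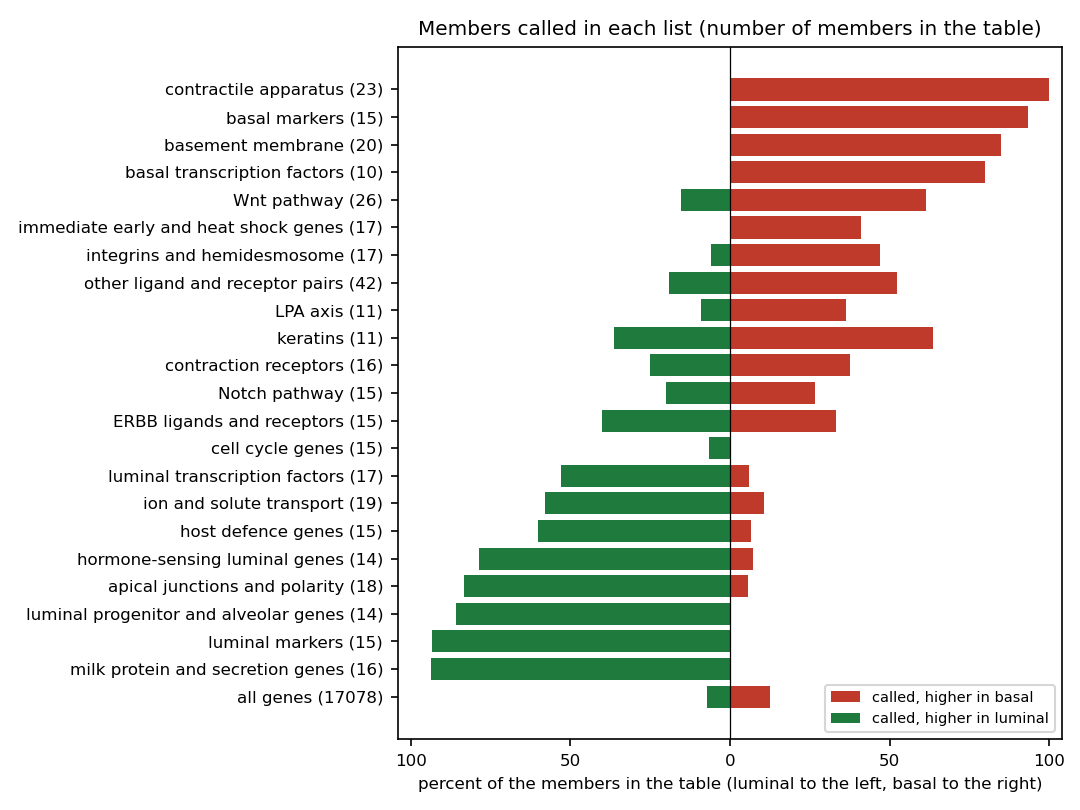
Share of the members of 22 gene lists, and of all genes, called higher in basal (red, to the right) and in luminal cells (green, to the left), in percent of the members in the table, whose number stands in parentheses. Contractile genes (23 of 23) and milk genes (15 of 16) are at the ends, and the Notch and ERBB pathways have members on both sides.

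Several ligands and their receptors were called on opposite sides. The stem cell factor gene *Kitl* was at 155 to 405 CPM (median 211) in luminal and 612 to 998 CPM (median 851) in basal libraries (1.73 ± 0.15), and its receptor *Kit* at 222 to 438 CPM (median 332) in luminal and 29.2 to 75.6 CPM (median 61.5) in basal libraries (-2.62 ± 0.16). *Hgf*, hepatocyte growth factor, was at 0.412 to 1.53 CPM (median 0.620) in luminal and 63.1 to 111 CPM (median 74.2) in basal libraries (5.46 ± 0.16, adjusted p = 9.34e-10), and its receptor *Met* was higher in luminal cells (-1.61 ± 0.11). In these pairs the ligand was basal and the receptor luminal. The reverse was found for leukemia inhibitory factor and for endothelin. *Lif* was at 109 to 233 CPM (median 146) in luminal and 20.9 to 61.0 CPM (median 26.5) in basal libraries (-2.22 ± 0.19), and its receptor *Lifr* at 48.4 to 135 CPM (median 85.5) and 528 to 1279 CPM (median 682) (3.03 ± 0.12). *Edn1* was higher in luminal cells (-1.89 ± 0.22), and its receptors, named above, were higher in basal cells.

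Of 42 genes in this list of other ligands and receptors, 22 were called higher in basal and 8 higher in luminal cells (median log2 difference 1.10). Further basal ligands were *Bmp7* (4.64 ± 0.19), *Pthlh*, which encodes parathyroid hormone-related protein (3.93 ± 0.21), *Pdgfa* (2.70 ± 0.16) and the axon guidance genes *Slit3* (5.19 ± 0.27) and *Slit2* (3.89 ± 0.24). Their receptor *Robo1* was higher in the same layer (2.70 ± 0.15). *Tgfbr3*, betaglycan, was at 29.1 to 54.6 CPM (median 42.3) in luminal and 738 to 1006 CPM (median 808) in basal libraries (4.29 ± 0.11), whereas the signalling receptor *Tgfbr2* (-0.05 ± 0.18, adjusted p = 0.86) did not pass the test. RANKL (*Tnfsf11*) was luminal, and its receptor *Tnfrsf11a* was at 37.1 to 147 CPM (median 78.8) in luminal and 44.7 to 105 CPM (median 77.1) in basal libraries (0.01 ± 0.18, adjusted p = 0.967). The receptor thus overlapped between layers where the ligand did not.

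**Figure D4:**
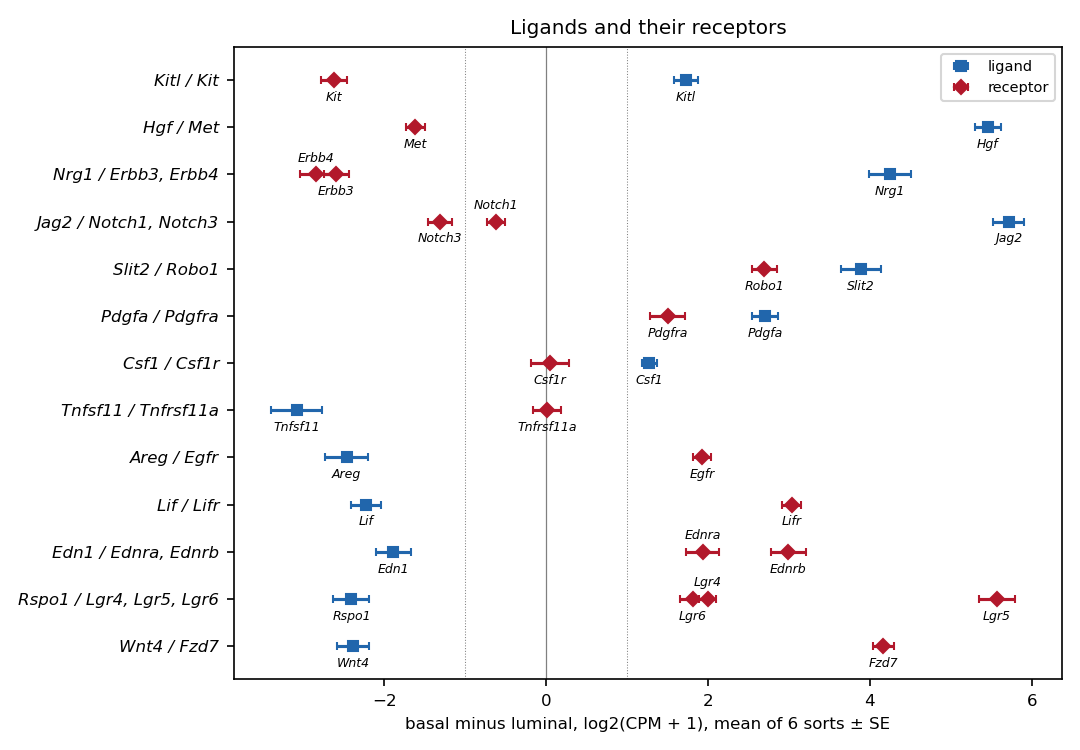
Basal minus luminal difference in log2(CPM + 1), mean of 6 sorts ± SE, of ligands (squares) and receptors (diamonds), 1 ligand a row with the receptors named beside it; dotted lines mark a 2-fold change. *Kitl*, *Hgf*, *Nrg1* and *Jag2* lie to the right of receptors on the left, and *Areg*, *Lif*, *Edn1*, *Rspo1* and *Wnt4* lie to the left of receptors on the right.

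In the Notch pathway, through which neighbouring cells choose different fates, the ligands and the receptors differed. Of 15 genes, 4 were called higher in basal and 3 higher in luminal cells (median log2 difference 0.26). The ligands *Jag2*, at 0.639 to 2.39 CPM (median 1.39) in luminal and 91.3 to 139.5 CPM (median 129) in basal libraries (5.72 ± 0.19), *Dll1* (5.10 ± 0.14) and *Jag1* (2.58 ± 0.14) and the glycosyltransferase *Lfng* (2.04 ± 0.21) were basal. *Notch3* was at 114 to 134 CPM (median 122) in luminal and 29.6 to 79.7 CPM (median 51.0) in basal libraries (-1.31 ± 0.15), and the targets *Hes1*, at 32.1 to 78.0 CPM (median 64.5) against 18.0 to 43.0 CPM (median 28.4) in basal libraries, and *Nrarp* (-1.02 ± 0.23) were also luminal. The other targets in the list, *Hey1*, *Hey2* and *Heyl*, were not called in either direction. *Notch1* (-0.62 ± 0.11) and *Notch2* (-0.57 ± 0.08) differed in the same direction with adjusted p-values of 0.000888 and 0.00011, and missed the fold threshold. *Hes1* lost its call when Iw4 replicate 5 (-0.95), Iw4 replicate 6 (-0.97) or M4 replicate 6 (-0.91) was left out. *Nrarp* lost it without Iw4 replicate 5 (adjusted p = 0.0101), Iw4 replicate 6 (-0.95), M4 replicate 1 (-0.88) or M4 replicate 2 (-0.93).

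ERBB signalling, which drives ductal and alveolar growth, had 5 of 15 genes called higher in basal and 6 higher in luminal cells (median log2 difference -0.12). *Egfr* was at 78.7 to 106 CPM (median 95.9) in luminal and 304 to 424 CPM (median 357) in basal libraries (1.93 ± 0.11), whereas *Erbb3* (-2.59 ± 0.15), *Erbb4* (-2.84 ± 0.20) and *Erbb2* (-1.16 ± 0.14) were luminal. The ligands were also divided between the layers. *Nrg1*, which binds ERBB3 and ERBB4, was at 0.701 to 3.85 CPM (median 1.90) in luminal and 39.6 to 87.0 CPM (median 50.9) in basal libraries (4.25 ± 0.26). *Areg* (-2.46 ± 0.27) and betacellulin (*Btc*, -1.85 ± 0.26), which bind EGFR, and *Hbegf* (-1.03 ± 0.12) were luminal, and epiregulin (*Ereg*, 1.66 ± 0.27), another ligand of EGFR, was basal like *Egfr*. *Hbegf* lost its call without M4 replicate 1 (-0.97) or M4 replicate 6 (-0.95).

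The Wnt pathway, which maintains basal and stem cells, was mostly higher in basal cells, with 16 of 26 genes called there and 4 in luminal cells (median log2 difference 1.90). *Lgr5*, an R-spondin receptor and stem cell marker, was at 1.14 to 2.73 CPM (median 1.33) in luminal and 70.9 to 209 CPM (median 125) in basal libraries (5.57 ± 0.22, adjusted p = 8.6e-09). Its relatives *Lgr4* (2.00 ± 0.10) and *Lgr6* (1.81 ± 0.16) and the Wnt receptor *Fzd7* (4.16 ± 0.13) were also basal. The feedback targets *Axin2* (2.32 ± 0.27) and *Znrf3* (1.33 ± 0.09) and the inhibitors *Dkk3* (4.69 ± 0.31) and *Sfrp1* (2.02 ± 0.20) were on the same side. The 4 luminal genes were all secreted ligands or agonists: *Wnt4*, *Wnt7b* (-1.97 ± 0.20), *Wnt5b* (-1.23 ± 0.13) and R-spondin 1 (*Rspo1*, -2.40 ± 0.22). Basal cells had ligands of their own, *Wnt10a* at 8.47 to 23.9 CPM (median 13.0) against 0 to 0.701 CPM (median 0.411) in luminal libraries and *Wnt11* at 5.23 to 10.3 CPM (median 8.34) against 0.383 to 1.40 CPM (median 0.600).

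Lysophosphatidic acid (LPA) is a lipid signal made by autotaxin (*Enpp2*), removed by lipid phosphatases and read by LPAR receptors. Of 11 genes, 4 were called higher in basal and 1 higher in luminal cells (median log2 difference 0.85). *Enpp2* was at 0 to 4.09 CPM (median 1.10) in luminal and 2.85 to 30.1 CPM (median 9.34) in basal libraries (2.18 ± 0.30), and *Lpar5* at 0 to 0.687 CPM (median 0.167) and 1.75 to 5.56 CPM (median 4.35) (2.04 ± 0.22). *Lpar1* (0.42 ± 0.27, adjusted p = 0.248), *Lpar2* (0.57 ± 0.17, adjusted p = 0.017), *Lpar3* (0.93 ± 0.26, adjusted p = 0.0117), *Lpar4* (0.85 ± 0.16, adjusted p = 0.00105) and *Lpar6* (0.64 ± 0.15, adjusted p = 0.00498) were not called. *Lpar4* was called with edgeR on reads (2.00, adjusted p = 0.0047) and with a pseudocount of 0.1 (1.80, adjusted p = 0.00258), and *Lpar3* when M4 replicate 6 was left out (1.16, adjusted p = 0.00323). No library was above 22.9 CPM for any of the 6 receptors. The phosphatases were divided, *Plpp3* (2.60 ± 0.17) and *Plpp1* (3.13 ± 0.18) basal and *Plpp2* (-1.39 ± 0.13) luminal, with 25.8% of the exon bases of *Plpp1* shared with another gene.

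Immediate early and heat shock genes, which answer to stress and growth factors within minutes and can be induced when tissue is taken apart, were called higher in basal cells for 7 of 17 members and in luminal cells for 0 (median log2 difference 0.65). *Egr1* was at 599 to 1981 CPM (median 1368) in luminal and 3847 to 7058 CPM (median 4968) in basal libraries (2.15 ± 0.20), *Fos* at 225 to 1083 CPM (median 589) and 1730.4 to 2845 CPM (median 2476) (2.08 ± 0.19), and *Nr4a1* differed by 2.10 ± 0.25. *Fosb* (0.22 ± 0.22, adjusted p = 0.465), *Atf3* (0.19 ± 0.18, adjusted p = 0.431) and the heat shock gene *Dnajb1* (0.03 ± 0.10, adjusted p = 0.822) did not pass the test. Both fractions of a sort came from the same tissue digest. The part of the digest in these differences was not tested.

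Markers of fibroblasts, endothelium and pericytes were mostly higher in basal libraries. All 7 fibroblast markers were called, with *Col1a2* at 0.687 to 91.1 CPM (median 9.25) in luminal and 46.7 to 427 CPM (median 95.4) in basal libraries (3.22 ± 0.26). Their summed level was 76.2 to 433 CPM in luminal and 256 to 2036 CPM in basal libraries, the highest being Iw4 replicate 6 in both layers, and *Dcn* contributed most. *Dcn* (1.50 ± 0.31) lost its call when Iw4 replicate 3 (adjusted p = 0.0104), Iw4 replicate 6 (adjusted p = 0.0107), M4 replicate 2 (adjusted p = 0.0126) or M4 replicate 6 (adjusted p = 0.0109) was left out. Of 7 endothelial markers, 6 were called, with summed levels of 4.26 to 21.3 CPM in luminal and 18.9 to 126 CPM in basal libraries. *Pecam1*, which encodes the CD31 used to remove endothelial cells, was at 8.64 to 41.8 CPM (median 29.9) in basal libraries. These markers of cells that the sort removes were thus measurable. Of 7 pericyte markers, 4 were called higher in basal cells, *Cspg4* (3.72 ± 0.24), *Rgs5* (3.62 ± 0.17), *Pdgfrb* (3.34 ± 0.26) and *Abcc9* (2.64 ± 0.33), and *Notch3* higher in luminal cells, with summed levels of 123 to 149 CPM in luminal and 97.9 to 373 CPM in basal libraries, where *Notch3* contributed most. The remaining members, *Kcnj8* and *Higd1b*, were not called, and *Higd1b* was at most 0.713 CPM in any library.

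Markers of the remaining cell types were mostly not called. Of 3 adipocyte markers in the table, *Fabp4* (2.61 ± 0.25) and *Lep* were called higher in basal cells, *Lep* with no luminal library above 0.129 CPM, under the floor, and basal libraries at 0.305 to 3.50 CPM (median 0.924), with summed levels of 2.59 to 18.0 CPM in luminal and 19.6 to 105 CPM in basal libraries. Of 6 immune markers, 0 were called, and their sum was 9.11 to 18.0 CPM in luminal and 10.4 to 19.3 CPM in basal libraries, with *Lyz2* contributing most and *Ptprc*, which encodes CD45, at no more than 1.21 CPM. Of 5 Schwann cell markers, 1 was called higher in basal cells and 1, *Mbp*, higher in luminal cells (-1.73 ± 0.11), with summed levels over the 5 of 149 to 202 CPM in luminal and 186 to 224 CPM in basal libraries. *Lep* lost its call without Iw4 replicate 5 (0.84 on the log2 scale), M4 replicate 1 (0.97) or M4 replicate 2 (adjusted p = 0.0116). *Sox10* contributed most to the Schwann cell sum and is also known from mammary epithelium. Of 2 erythroid markers, 0 were called, with sums of at most 5.03 CPM. The part of these other cells in the basal differences was not tested. Leaving out Iw4 replicate 6, the sort with the highest fibroblast sum, gave 2020 genes higher in basal and 1187 higher in luminal cells. In each remaining sort the fibroblast sum was also higher in the basal library, so this count is no test of the part of these cells.

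The difference between the layers was then compared between the parous (Iw4) and the nulliparous gland (M4), as the difference of the differences in limma. It was called for 0 of 17078 genes (0%), the smallest adjusted p being 0.768, while 1090 genes (6.38%) had an unadjusted p under 0.05. With edgeR on the reads, 0 genes were called and 991 had an unadjusted p under 0.05. The sorts of the time points were matched by amplification batch, which was not part of the model or of the alternatives run. Each time point alone, in the same model, had 2950 genes called at Iw4 and 3045 at M4. Of these, 1550 were called higher in basal cells at both time points, 851 higher in luminal cells at both and 0 in opposite directions. A p that misses the threshold does not show that the time points are alike, and parity cannot be told apart from the other differences between these groups of mice.

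The genes with the smallest unadjusted p are given as values. A basal minus luminal difference more toward basal cells at Iw4 than at M4 was measured for *Ntn4*, a netrin (5.25 at Iw4 and 4.19 at M4), *Atad2* (0.63 and -0.34), *Rap1gap2* (0.67 and -0.71), *Slc5a3* (0.51 and -0.70) and lipoprotein lipase (*Lpl*, -1.82 and -3.08). One less toward basal cells was measured for *Crispld1* (3.37 and 5.32), *Fbln7*, a fibulin (3.46 and 5.25), *Ier2* (0.28 and 1.09), the calcium release channel *Itpr3* (-1.35 and -0.51) and *Gm26397* (-0.48 and 0.60). All 10 had an adjusted p of 0.768.

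No cell cycle gene passed the test of a difference between the time points, and the values of the list are given as a description. Between the layers, 1 of 15 was called at rest, *Mcm6*, a helicase subunit, higher in luminal cells (-1.04 ± 0.21), a call lost without M4 replicate 1 (-0.81) or M4 replicate 6 (-0.93). The list median was -0.28 over the 6 pairs, 0.24 at Iw4 and -0.76 at M4, and 8 of 15 members had an unadjusted p under 0.05 for the difference, all with the larger basal minus luminal difference at Iw4, against 6.38% of all genes in either direction. Of the fibroblast markers, 4 of 7 also had an unadjusted p under 0.05 for this difference, all with the smaller basal minus luminal difference at Iw4, and so had 5 of 20 basement membrane genes, in the same direction. Each of the other lists had 0 to 5 members with such a p. *Mki67*, the Ki-67 proliferation gene, was at 57.6, 19.5 and 186 CPM in the luminal and 70.8, 28.9 and 193 CPM in the basal libraries of Iw4 replicates 3, 5 and 6. At M4 replicates 1, 2 and 6 it was at 204, 514 and 183 CPM in luminal and 43.5, 419 and 47.2 CPM in basal libraries. Basal libraries were a little above their luminal partners in all 3 Iw4 sorts and below them in all 3 M4 sorts, and so in each of the 3 amplification batches the Iw4 sort had the larger basal minus luminal difference. M4 replicate 2 was high in both layers. The summed level of the list was 478, 131 and 584 CPM in luminal and 497, 142 and 625 CPM in basal libraries of Iw4 replicates 3, 5 and 6, and 774, 1369 and 588 CPM in luminal and 231, 1241 and 235 CPM in basal libraries of M4 replicates 1, 2 and 6. All 3 luminal libraries of M4 were thus above those of Iw4, the lowest by little, while the basal libraries of the time points overlapped. The difference between time points was 1.77 ± 0.42 for *Mki67* (unadjusted p = 0.00171, adjusted p = 0.768) and 1.92 ± 0.46 for the topoisomerase *Top2a* (unadjusted p = 0.00197, adjusted p = 0.768). Because the members of the list are known to vary together, they do not count as separate observations.

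**Figure D5:**
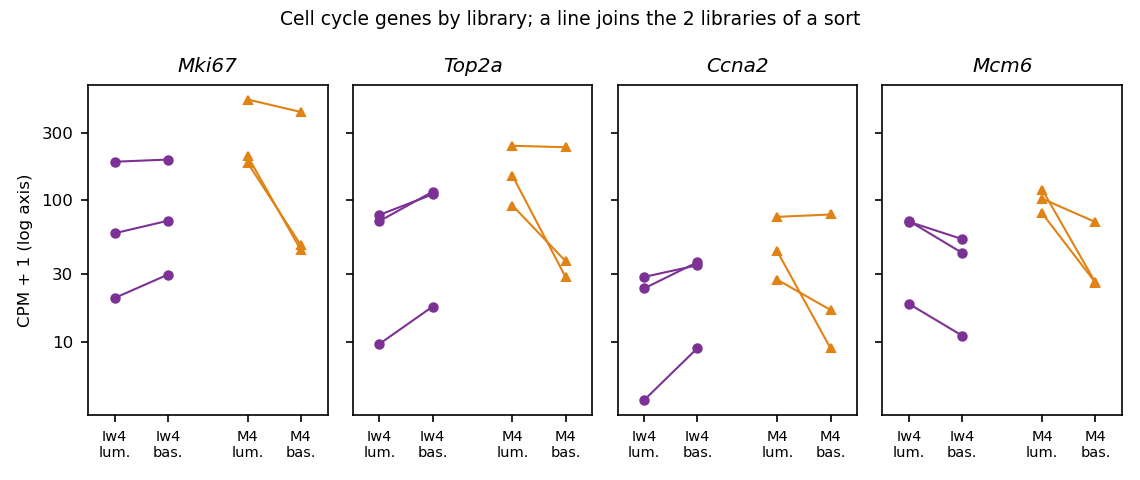
CPM + 1 (log axis, shared by the panels) of 4 cell cycle genes in each of the 12 libraries, luminal and basal at Iw4 (circles) and at M4 (triangles), with a line joining the 2 libraries of a sort. For *Mki67* and *Top2a* the Iw4 lines go up toward the basal library and the M4 lines go down, 2 of them steeply, and *Mcm6* goes down in all 6 sorts.

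Against virgin females at W10, in a model of 44 libraries, the difference between the layers at rest was called for 0 of 17078 genes (0%). The smallest adjusted p was 0.398, and 599 genes (3.51%) had an unadjusted p under 0.05. With edgeR, 0 genes were called and 491 had an unadjusted p under 0.05. The smallest p belonged to *Gnai1*, a G protein subunit, whose basal minus luminal difference was 2.79 at rest and 4.82 at W10, and to *Nrep* (0.57 and 2.09), each with an adjusted p of 0.398. The others by the same rule had adjusted p-values of 0.672 or above. They were *Cybrd1* (-0.42 and 1.73), *Rab30* (-1.61 and -0.06) and *Bend4* (0.09 and 1.96), with a difference more toward basal cells at W10, and the cytokine *Il33* (0.97 and -2.10), *Itih2* (-1.51 and -3.64), *Mgat1* (0.10 and -1.01) and the small RNA genes *Rn7sk* (0.51 and -0.63) and *Rpph1* (0.62 and -1.49), with one more toward basal cells at rest. The W10 libraries were sequenced in another lane and amplified in another batch, which cannot be told apart from the time point.

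Between rest and lactation the difference of the layers changed for many genes. The basal minus luminal difference at rest exceeded that at L3 for 557 genes (3.26%) and was below it for 640 genes (3.75%), where the amplification batch, another one than those of the resting gland, cannot be told apart from the time point. With edgeR on reads the counts were 325 and 286, and without L3 replicate 6 the second one was 383. Milk genes had the lower basal level relative to luminal cells at L3: 7 of 16 were called in that direction and 0 in the other, their median difference being -2.65 at rest and -5.15 at L3. Of the contractile genes, 6 of 23 were called with a larger basal excess at L3 and 0 at rest, with medians of 4.53 and 5.78. Several basal genes had a larger excess at rest. At L3 the 3 basal libraries had 3.48 ± 2.12 CPM (SD) of *Lgr5* and the 3 luminal ones 1.66 ± 2.00 CPM (SD), and the difference to rest was 4.66 ± 0.64 (adjusted p = 6.44e-05). The floor of 3 reads was 0.353 to 1.05 CPM in the luminal libraries of L3, near the luminal mean of *Lgr5*. *Krt5* (2.87 ± 0.64, adjusted p = 0.00457) and *Wif1* (3.36 ± 0.61, adjusted p = 0.000901) shared this direction, but the call of *Krt5* ended without Iw4 replicate 3 (adjusted p = 0.0123), Iw4 replicate 6 (0.0107), M4 replicate 1 (0.0116), L3 replicate 4 (0.013) or L3 replicate 5 (0.0375), and that of *Wif1* with edgeR on reads (adjusted p = 0.104) or a pseudocount of 0.1 (adjusted p = 0.0356).

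By the rule of smallest p, the difference between rest and L3 was led by *Slc39a8*, a zinc and manganese transporter. It was higher in basal cells at rest (1.92 ± 0.20) and higher in luminal cells at L3, at 698 ± 232 CPM against 42.3 ± 25.3 CPM in basal cells (SD, n = 3 each), a difference of 6.10 ± 0.45 (adjusted p = 6.21e-08). *Lgr4* also had the higher mean in luminal cells at L3, at 244 ± 79.4 CPM against 146 ± 32.6 CPM (SD, n = 3 each, a difference of 2.72 ± 0.26), and the milk peroxidase *Lpo* (5.04 ± 0.40), the dopamine receptor *Drd4* (4.41 ± 0.45) and *Cyp2b19* (4.25 ± 0.43) were far higher in luminal cells at L3. *Piezo2*, a mechanically gated channel, went the other way: at rest it was at 26.1 to 189 CPM (median 70.6) in luminal and 4.90 to 16.8 CPM (median 9.91) in basal libraries (-2.76 ± 0.22), and at L3 at 1.88 ± 1.23 and 30.7 ± 28.2 CPM (SD, n = 3 each), a difference of -5.94 ± 0.53 (adjusted p = 7.55e-07). The channel was thus higher in luminal cells at rest and had the higher mean in basal cells at L3, with a wide spread. The transcription factor *Nfatc2* (-3.64 ± 0.31), the receptor phosphatase *Ptprz1* (-4.20 ± 0.39) and *Myadm* (-2.38 ± 0.25) also had a larger basal excess at L3. So had leptin (*Lep*), a gene of adipocytes, of which the 3 basal libraries of L3 held 195 ± 51.9 CPM (SD), although *Lep* was not called with edgeR on reads (adjusted p = 0.968). Of the 3 adipocyte markers 2 were called in that direction, and 2 of 7 fibroblast and 4 of 7 pericyte markers as well. Their part in this comparison was not tested. *Nrxn3*, luminal at rest, was at 0.947 ± 1.08 CPM in luminal and 1.11 ± 1.24 CPM in basal cells at L3 (-3.57 ± 0.54). The luminal means of *Piezo2* and *Nrxn3* at L3 were near the floor of those libraries, 0.353 to 1.05 CPM.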

How the data were processed

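Luminal and basal cells were sorted from pooled glands of FVB/N mice, and 5 ng of RNA were amplified (Ovation RNA-Seq V2, which does not keep strand) and sequenced on a HiSeq 2000. Per the labels and the study's methods, the authors aligned reads with GSNAP to mouse build mm9, counted them per gene with HTSeq and normalized them with edgeR, leaving out genes with few reads and some with very many. The deposited values are a normalized signal in CPM, divided by effective library sizes. 100% of values in the 12 libraries came out as whole reads (tolerance 0.01), which gave the depths. All 46 columns were mapped to samples, and 0 were left out. Whether counting used strand is not given in the sources used here.

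log2(CPM + 1) of 17078 genes was fitted with limma 3.58.1 (R 4.3.3, mean-variance trend), with the sort as a fixed block, and adjusted by Benjamini-Hochberg over all genes. Differences between time points were interaction terms, those to W10 and L3 in the 44 libraries of 22 complete sorts. The alternatives were no block, other libraries, a pseudocount of 0.1, a minimum of 5 CPM, median ratios, edgeR 4.0.16 quasi-likelihood on the reads recovered, a rate of 0.05, 1 time point alone, and each sort left out. Scripts were tested on simulated data. Within-sort deviations from the group means correlated at 0.304 to 0.386 in the 6 sorts, whose layers share a time point and a replicate number in the labels. Within a time point each sort had its own amplification batch, so a shared sort cannot be told apart from a shared batch here. Sorts are pools of separate mice, and p-values measure the spread between them.

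Symbols were matched for 16897 of the gene IDs (GENCODE, GRCm38.p6), and 181 were not matched. Genes reported singly that share at least 25% of exon bases with another gene were named as such. *Fosl1*, which was checked but is not reported singly, shares 62.4%. Named were members of the lists, the 10 largest differences in each direction among genes called, of the same sign in 6 pairs and with a mean of at least 5 CPM, and the 5 smallest p-values in each direction for each time point difference. *Il17b* was named after its values were seen. The comparison and the lists were chosen with earlier results of these data known. Some members of the lists are counted but not reported singly here.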

Additional observations from a re-analysis of the deposited data

Results flagged for a closer look

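Among 241 genes tested, 12 had 1 sort whose basal minus luminal difference lay far from the other 5, and chance yields about 1 such sort in 20 groups. In Iw4 replicate 3 these were *Actn1* (1.71 against 2.23 to 2.54 in the other sorts), *Atp6v1b1* (-2.05 against -3.45 to -2.96 in the other sorts), *Lama4* (-0.83 against 0.52 to 1.00 in the other sorts) and *Pecam1* (2.89 against 1.94 to 2.11 in the other sorts). In M4 replicate 1 these were *Cxcl14* (7.59 against 6.20 to 6.69 in the other sorts), *Dcn* (-0.57 against 1.66 to 2.78 in the other sorts), *Gnai1* (4.08 against 2.27 to 2.94 in the other sorts) and *Slit2* (5.31 against 3.37 to 3.83 in the other sorts). In Iw4 replicate 5 these were *Fosb* (-1.19 against 0.29 to 0.71 in the other sorts), *Hgf* (4.87 against 5.45 to 5.75 in the other sorts) and *Trp63* (4.22 against 6.24 to 6.62 in the other sorts). In Iw4 replicate 6 it was *P2ry2* (-0.31 against -1.87 to -1.49 in the other sorts).

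The difference between the layers itself differed between rest and L3, by the interaction term in limma. Its log2 value was above 0, with a difference more toward basal cells at rest, for *Slc39a8* (6.10), *Lpo* (5.04), *Lgr4* (2.72), *Cyp2b19* (4.25), *Drd4* (4.41), *Krt5* (2.87), *Lgr5* (4.66) and *Wif1* (3.36), and below 0 for *Nfatc2* (-3.64), *Piezo2* (-5.94), *Ptprz1* (-4.20), *Lep* (-5.61), *Myadm* (-2.38) and *Nrxn3* (-3.57). Luminal libraries held too few reads of *Lep* at rest for its value to be a fold change, and with edgeR on reads *Lep* was not called (adjusted p = 0.968).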

How the results depend on the processing

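The 3340 genes called between the layers at rest became 3188 with all 44 libraries in the model, 3317 with median ratios, 3375 at a false discovery rate of 0.05, 3921 with a pseudocount of 0.1, 2389 when 5 CPM were required, 3873 with edgeR on reads and 2608 with the M4 pairs alone. With the Iw4 pairs alone, and so with fewer samples, there were 2126 (1366 higher in basal and 760 higher in luminal cells). Leaving out 1 sort gave 3207 to 3397 genes, 2020 to 2161 higher in basal and 1161 to 1236 higher in luminal cells. The pairing of layers by sort comes from the labels, and with no replicate block 3216 genes were called at rest (2074 higher in basal and 1142 higher in luminal cells) and 839 between rest and L3, and 0 in the other comparisons. Without the block the calls at rest of *Calca* (adjusted p = 0.052), *Csn1s2b* (adjusted p = 0.0151), *Itih2* (adjusted p = 0.0278), *Mcm6* (adjusted p = 0.074), *Nrarp* (adjusted p = 0.0117), *Rspo1* (adjusted p = 0.0111) and *Wap* (adjusted p = 0.0136) and that of *Krt5* between rest and L3 (adjusted p = 0.0505) were lost. The comparisons of Iw4 with M4 and of rest with W10 had 0 calls under each alternative run. Between rest and L3, 1197 genes became 611 with edgeR on reads (325 with a difference more and 286 with one less toward basal cells at rest) and 2271 at a false discovery rate of 0.05 (1009 and 1262), and leaving out 1 sort gave 847 to 1018 (392 to 468 and 383 to 575). The cause of these changes was not tested. Of 3802 values of named genes under an alternative, 3666 kept their direction and their side of the threshold, 77 lost and 11 gained a call, and 48 changed sign, all in genes that were not called at rest. At rest the calls lost were those of *Hbegf*, *Lep* and *Nrarp* with 44 libraries, of *Dcn*, *Erbb2*, *Ereg*, *Krt16*, *Lep*, *Mcm6*, *Nrarp*, *Pgr*, *Ptger1* and *Spdef* with the M4 pairs only, and of *Abcc9*, *Axin2*, *Btc*, *Chrm3*, *Csn1s2b*, *Edn1*, *Egr1*, *Enpp2*, *Ereg*, *Fos*, *Greb1*, *Hbegf*, *Hes1*, *Itih2*, *Krt16*, *Krt6a*, *Lep*, *Lpar5*, *Mcm6*, *Myb*, *Notch3*, *Nr4a1*, *Nrarp*, *P2ry2*, *Plet1*, *Ptger1*, *Rab30* and *Tnfsf11* with the Iw4 pairs only. The values of changed sign, on the log2 scale, follow. With the M4 pairs only they were *Atad2* (-0.34), *Bcl11a* (-0.087), *Grhl2* (-0.024), *Lama5* (0.28), *Lpar1* (-0.11), *Tgfbr2* (0.025) and *Tnfrsf11a* (-0.28). With the Iw4 pairs only they were *Atf3* (-0.014), *Cxcl1* (0.16), *Dnajb1* (-0.077), *Fosb* (-0.033), *Gm26397* (-0.48), *Mki67* (0.30), *Rap1gap2* (0.67), *Slc5a3* (0.51), *Sox9* (0.11) and *Top2a* (0.68). With median ratios they were *Dnajb1* (-0.0078), *Grhl2* (-0.019) and *Tnfrsf11a* (-0.029). When 1 sort was left out in turn, the values ran on both sides of 0 for *Bcl11a* (-0.030 to 0.34), *Bend4* (-0.043 to 0.21), *Cxcl1* (-0.30 to 0.21), *Dnajb1* (-0.029 to 0.12), *Gm26397* (-0.12 to 0.19), *Grhl2* (-0.071 to 0.072), *Lama5* (-0.13 to 0.085), *Lyz2* (-0.034 to 0.32), *Mgat1* (-0.010 to 0.18), *Rap1gap2* (-0.21 to 0.16), *Slc5a3* (-0.34 to 0.045), *Sox9* (-0.15 to 0.0018), *Tgfbr2* (-0.24 to 0.091), *Tlr2* (-0.23 to 0.11), *Tnfrsf11a* (-0.16 to 0.20) and *Top2a* (-0.51 to 0.14).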
